A study of Mus musculus with 2 samples.

Results

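The genes described here are 44 genes of the lysosome, 29 for enzymes and other proteins of its lumen, 11 for membrane proteins and cholesterol carriers, and 4 for the mannose 6-phosphate sorting route. They were picked from the count table by symbol, from a list of lysosomal genes that was drawn up with earlier results of these data known. All 44 were among the 18987 genes of the deposited count table, and all 44 passed the filter on low values, a mean over both libraries of 1 or more CPM (counts scaled to library size), as did 12086 genes in all. The study sequenced RNA from RAW264.7 cells, a mouse macrophage-like line that can form osteoclasts, in 2 libraries. One was made from cells carrying a control shRNA. The other was made from cells carrying an shRNA to Cpeb4, an RNA-binding protein that binds cytoplasmic polyadenylation elements. The cells of both groups were plated at a density of 7500 per cm2 and, after 24 h, were given RANKL, the osteoclast-inducing cytokine, at 100 ng/ml, with collection on day 3 by the series title. The labels do not say whether the shRNA cells were a clone or a pool, and they name 1 library per group. Every difference below is therefore a difference between these libraries, with no test and no replicate check.

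Lysosomes break down lipids, sugar polymers, proteins and nucleic acids with acid hydrolases. Most of these enzymes are made in the endoplasmic reticulum, receive a mannose 6-phosphate tag in the Golgi and are carried to endosomes by mannose 6-phosphate receptors. Many of their genes carry CLEAR elements, E-box-like sites bound by the MiT transcription factors TFEB, TFE3 and MITF. In osteoclasts, lysosome-related vesicles fuse with the membrane that faces bone and release their enzymes onto it.

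The control library held 79399680 counts and the Cpeb4 shRNA library 119350322. Cpeb4 itself had 25270 and 13491 counts, 345 and 104 CPM, and was 3.31-fold lower in the library of its shRNA. The markers fixed for osteoclasts were present in both libraries, 9 of 9 past the filter. Of 9 macrophage markers 8 were listed and 6 passed. The table held 0 of 7 granulocyte and mast cell markers, 3 of 7 fibroblast markers and 2 of 7 lymphoid markers, and none of these (0) passed the filter, while 1 of 7 dendritic cell markers did.

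The lysosomal genes were mostly lower in the Cpeb4 shRNA library. A difference of 2-fold or more downward was seen for 21 of 44, against 11.8% of all genes past the filter, and upward for 2, against 14.6%. The remaining 21 were within 2-fold. A ratio below 1 was found for 40 of 44, against 47.5% of all genes. The log2 ratio, Cpeb4 shRNA over control, had a median of -0.95, with the middle of the distribution between -1.54 (lower quartile) and -0.69 (upper quartile), beside a median of 0.05 over all genes. Lysosomal genes are abundant, and abundant genes leaned lower in general. Among the 2249 genes averaging 100 CPM or more, a limit chosen after seeing the data, 14.8% were 2-fold or more lower and 8.67% higher, with a median of -0.18. Of the 28 lysosomal genes above that limit, 15 were lower and 1 higher, and their median was -1.14. Summed over all 44, their counts made up 1.83% of the control library and 0.904% of the Cpeb4 shRNA library. Since these are bulk libraries, fewer cells with a high lysosomal content and less lysosomal RNA per cell cannot be told apart.

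**Figure D1:**
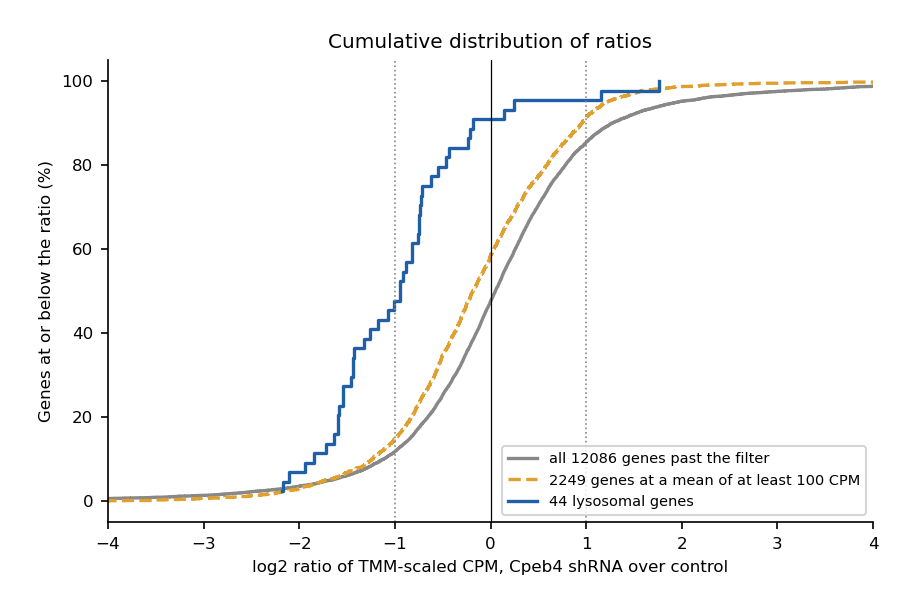
Cumulative share of genes (vertical axis, percent) at or below a given log2 ratio of Cpeb4 shRNA over control (horizontal axis), for all genes past the filter, genes averaging 100 CPM or more, and the 44 lysosomal genes; dotted lines mark 2-fold. The curve of the lysosomal genes lies to the left of both others over most of the axis, with its median at -0.95, but no lysosomal gene lies below -2.18.

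None of the 44 was among the very lowest genes of the table. The lowest, Hexa at a log2 ratio of -2.18, had 2.90% of all genes below it, and 3 of the 44, Hexa, Gla and Glb1, were at least 4-fold lower. Under total-count scaling these 3 came within 4-fold, at -1.945, -1.938 and -1.878. Under reference-gene scaling Glb1 did, at -1.958. Just past the 2-fold limit, and so among the 21, were Gaa, 2.01-fold lower, and Mcoln1, 2.11-fold lower. Just short of it were Arsa, 1.93-fold lower, and Pla2g15, 1.92-fold lower. The count of 21 thus cuts through a continuous series of values. The lowest count of any of them was 892 with the control shRNA and 1448 with the Cpeb4 shRNA, so counting error was small beside most of the differences. The 95% counting interval of a log2 ratio, an exact binomial interval on the 2 counts that leaves out variation between cultures, had a median half-width of 0.038 over the 44 genes.

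**Figure D2:**
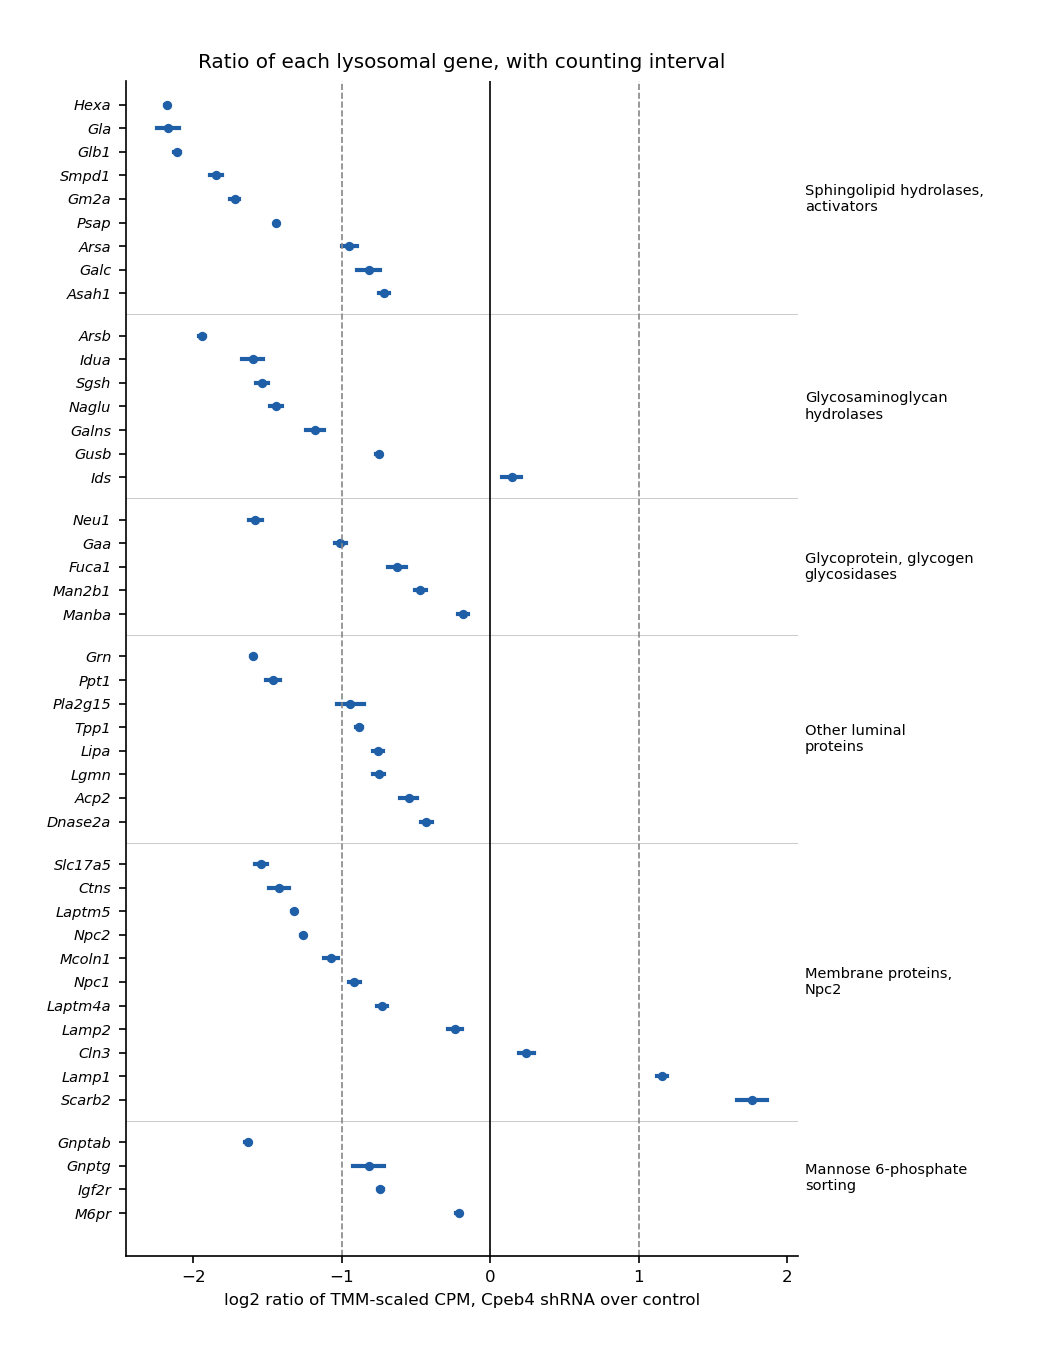
Log2 ratio of TMM-scaled CPM (horizontal axis), Cpeb4 shRNA over control, for each of the 44 genes by role; points are the ratios, bars their 95% counting intervals and dashed lines mark 2-fold. Sphingolipid and glycosaminoglycan genes reach furthest to the left, and Lamp1 at 1.16 and Scarb2 at 1.76 are the points beyond 2-fold on the right.

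Promoter windows of the genes were examined because lysosomal genes are known for CLEAR elements. The windows, from RefSeq for GRCm38.p6, run from 250 bases before to 50 after a start site, and 40 of the 44 genes matched at least 1. The core of the element, TCACGTG, was searched on both strands, where the reverse strand reads CACGTGA; each match also holds the E-box CACGTG. It was found for 12 of 40 genes (30%), against 7.22% of the 8791 genes past the filter that have a window. By window, it was in 13 of 45 (28.9%), against 6.10% of those of genes past the filter and 3.77% of all 32851 windows. In lists of other lysosomal genes, drawn up for comparison, it was found for 2 of 14 luminal genes (14.3%) and 3 of 18 membrane genes (16.7%). Because the element is known from lysosomal genes, its share among the 44 is not a result about the shRNA. The general E-box CACGTG was in 12.2% of genes past the filter, and among the 40 lysosomal genes with a window it was in the same 12, so each of their E-boxes was part of the longer core. The 4 genes with the core and the lowest ratios are printed here, with Lamp1 added after its value was seen, as a gene with the core and a ratio on the other side. Sequences read 5′ to 3′ on the strand of the gene, and capitals mark each match to the core on either strand.

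Gla (chrX:134600956-134601255, minus strand): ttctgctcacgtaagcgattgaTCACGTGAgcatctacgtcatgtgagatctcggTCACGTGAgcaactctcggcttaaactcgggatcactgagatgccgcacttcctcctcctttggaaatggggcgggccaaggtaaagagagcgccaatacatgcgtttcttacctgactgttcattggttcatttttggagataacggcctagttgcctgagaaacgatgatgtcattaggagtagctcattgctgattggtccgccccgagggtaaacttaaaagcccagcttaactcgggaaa
Glb1 (chr9:114400828-114401127, plus strand): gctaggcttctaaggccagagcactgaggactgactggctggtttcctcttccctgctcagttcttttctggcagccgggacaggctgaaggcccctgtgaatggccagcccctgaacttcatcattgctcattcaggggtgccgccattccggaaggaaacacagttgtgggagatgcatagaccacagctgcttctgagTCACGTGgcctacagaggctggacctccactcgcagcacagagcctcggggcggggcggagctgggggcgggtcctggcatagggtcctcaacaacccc
Sgsh (chr11:119355461-119355760, minus strand): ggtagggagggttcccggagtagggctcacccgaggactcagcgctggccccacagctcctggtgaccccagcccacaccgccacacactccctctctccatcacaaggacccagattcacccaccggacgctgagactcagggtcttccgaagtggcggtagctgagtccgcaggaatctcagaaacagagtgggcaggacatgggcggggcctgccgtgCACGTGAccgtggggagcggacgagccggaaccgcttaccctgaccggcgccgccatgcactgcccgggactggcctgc
Naglu (chr11:101069844-101070143, plus strand): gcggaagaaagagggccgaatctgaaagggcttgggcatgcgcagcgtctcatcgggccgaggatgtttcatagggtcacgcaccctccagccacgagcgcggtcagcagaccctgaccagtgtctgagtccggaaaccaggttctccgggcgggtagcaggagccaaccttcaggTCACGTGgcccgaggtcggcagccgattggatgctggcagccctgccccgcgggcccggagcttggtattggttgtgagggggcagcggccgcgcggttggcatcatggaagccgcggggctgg
Lamp1 (chr8:13158911-13159210, plus strand): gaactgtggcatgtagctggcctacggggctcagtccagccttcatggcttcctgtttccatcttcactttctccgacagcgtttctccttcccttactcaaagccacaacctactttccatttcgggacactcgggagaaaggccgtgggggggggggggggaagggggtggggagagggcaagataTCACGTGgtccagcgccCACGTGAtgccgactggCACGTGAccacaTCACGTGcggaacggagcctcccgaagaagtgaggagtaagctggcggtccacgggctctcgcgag

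The Gla window held 2 separate matches, the nearer one 195 bases before the start, and the Glb1, Sgsh and Naglu windows 1 each, at 49, 29 and 74 bases before it. The Lamp1 window held 4, between 62 and 16 bases before the start, more than in any other of the 40 genes with a window. The other genes with the core were Mcoln1, Gaa, Arsa, Gnptg, Lgmn, Igf2r and Cln3. Genes with and without the core covered much the same range of ratios. Of the 12 with it, 6 were at least 2-fold lower and 1 higher, with log2 ratios from -2.17 to 1.16 and a median of -0.98. Of the 28 without it, 14 were lower and 1 higher, with ratios from -2.18 to 1.76 and a median of -1.10. A match is a run of letters and does not show that a factor bound there.

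Genes of sphingolipid breakdown were lowest as a group. All 9 had a ratio below 1, 6 were at least 2-fold lower, and their median log2 ratio was -1.72, a 3.29-fold difference. Hexa encodes the alpha subunit of beta-hexosaminidase A, which removes N-acetylgalactosamine from GM2 ganglioside. The gene (ENSMUSG00000025232) lies on mm10 chromosome 9, 59539540 to 59565109, plus strand. It had 164230 counts (2242 CPM) with the control shRNA and 64115 counts (496 CPM) with the Cpeb4 shRNA, and was 4.53-fold lower (log2 ratio -2.18, counting interval -2.19 to -2.16). Gm2a, the activator protein that presents GM2 to this enzyme, had 350 and 106 CPM (-1.72). Enzyme subunit and activator were thus both lower by more than 3-fold, with a log2 ratio of Hexa minus that of Gm2a of -0.46 (counting interval -0.49 to -0.43).

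Gla, the alpha-galactosidase that degrades globotriaosylceramide, had 67.1 CPM with the control shRNA and 14.9 with the Cpeb4 shRNA, 4.50-fold lower. Glb1, the beta-galactosidase of GM1 ganglioside and keratan sulfate, had 829 and 192 CPM, 4.32-fold lower. It shares exons on the same strand with Tmppe, which was listed with 7551 and 4873 counts beside 60679 and 24817 for Glb1. Smpd1, the acid sphingomyelinase, had 201 and 55.8 CPM (-1.85). Psap, the precursor of the saposins that assist several sphingolipid hydrolases, was the gene of this group with the highest CPM, 2734 and 1006, a log2 ratio of -1.44.

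The sphingolipid enzymes that act on sulfatide, galactosylceramide and ceramide were within 2-fold. Arsa, the sulfatase of sulfatide, had 88.9 and 46.0 CPM (-0.95), and Galc, the galactosylceramidase, 36.8 and 20.9 CPM (-0.82). Asah1, the acid ceramidase, had 189 and 115 CPM (-0.71). The ratios within the group therefore spread by more than counting error. Smpd1, which makes ceramide, and Asah1, which degrades it, differed by 1.14 log2 units (counting interval 1.08 to 1.19), and this difference does not depend on scaling. Their CPM values were alike in the control library, with a quotient of Asah1 over Smpd1 of 0.94, and apart in the Cpeb4 shRNA library, with 2.06.

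Enzymes of glycosaminoglycan breakdown were the next lowest, with 5 of 7 at least 2-fold lower and a median log2 ratio of -1.44. Arsb removes sulfate from dermatan and chondroitin sulfate. It had 56144 and 25857 counts, 767 and 200 CPM, and was 3.84-fold lower (-1.94, counting interval -1.96 to -1.92). The heparan sulfate enzymes Sgsh, a sulfamidase, and Naglu, an N-acetylglucosaminidase, had nearly equal CPM, 179.7 and 180.0 with the control shRNA. With the Cpeb4 shRNA they had 61.9 and 66.2 CPM. Their log2 ratios were -1.54 and -1.44. Per exonic length the levels were not equal, with Naglu at 1.66 times Sgsh with the control shRNA and 1.78 times with the Cpeb4 shRNA. Idua, the iduronidase of heparan and dermatan sulfate, had 59.5 and 19.6 CPM (-1.60), and Galns, the N-acetylgalactosamine 6-sulfatase, 64.3 and 28.4 CPM (-1.18, and -0.95 under total-count scaling).

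Gusb and Ids stood apart from these enzymes. Gusb, the beta-glucuronidase, was the most abundant gene of the group in the control library by CPM and had 813 and 483 CPM (-0.75). Ids, the iduronate 2-sulfatase, had 2874 and 5612 counts, 39.2 and 43.4 CPM. Its log2 ratio of 0.14 (counting interval 0.08 to 0.21) was the only one of the 29 luminal genes above 0, and it was at -0.014 once a trend with GC content and length had been taken out. Idua and Ids act one after the other on iduronate residues, and their ratios differed by 1.74 log2 units (1.65 to 1.84). Gusb, which is often used as a reference gene, differed 1.68-fold between these libraries.

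Glycosidases of glycoproteins and glycogen differed less, with a median log2 ratio of -0.63 and 2 of 5 at least 2-fold lower. Neu1, the sialidase that takes terminal sialic acids from glycans, was lowest, with 168 and 56.3 CPM (-1.58). Gaa, the alpha-glucosidase that degrades glycogen, had 186 and 92.4 CPM (-1.01). It came to lie within 2-fold under total-count scaling (-0.78), reference-gene scaling (-0.86) and removal of the GC and length trend (-0.79). The same held, by a small margin, with a pseudocount of 2 CPM and with thinning of the deeper library. Fuca1, a fucosidase, was at -0.63 from 60.0 and 38.8 CPM, and Man2b1, the alpha-mannosidase, at -0.47 from 125 and 90.3 CPM. Manba, the beta-mannosidase, had 152 and 134 CPM (-0.18), and its ratio was above 0 under total-count scaling, at 0.05.

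Other luminal proteins had a median log2 ratio of -0.82, with 2 of 8 at least 2-fold lower and all 8 below 0. Grn, the precursor of the granulins, had 109669 and 64062 counts, 1497 and 495 CPM, and was 3.02-fold lower (-1.60). Ppt1, the thioesterase that removes palmitate from proteins, was at -1.46 from 129 and 47.0 CPM. The proteases Tpp1, a tripeptidyl peptidase, and Lgmn, the asparaginyl endopeptidase, were at -0.88 and -0.75. Tpp1 had 587 and 318 CPM and Lgmn 163 and 96.8 CPM.

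The lipid and nucleic acid enzymes of the lumen were within 2-fold. Lipa, the acid lipase of cholesteryl esters and triglycerides, had 186 and 111 CPM (-0.75), and the phospholipase Pla2g15 had 28.3 and 14.8 CPM (-0.94). Acp2, the lysosomal acid phosphatase, was at -0.55 from 67.4 and 46.0 CPM. Dnase2a, which digests DNA of engulfed cells, was the closest to 0 in this group, with 159 and 118 CPM (-0.43).

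**Figure D3:**
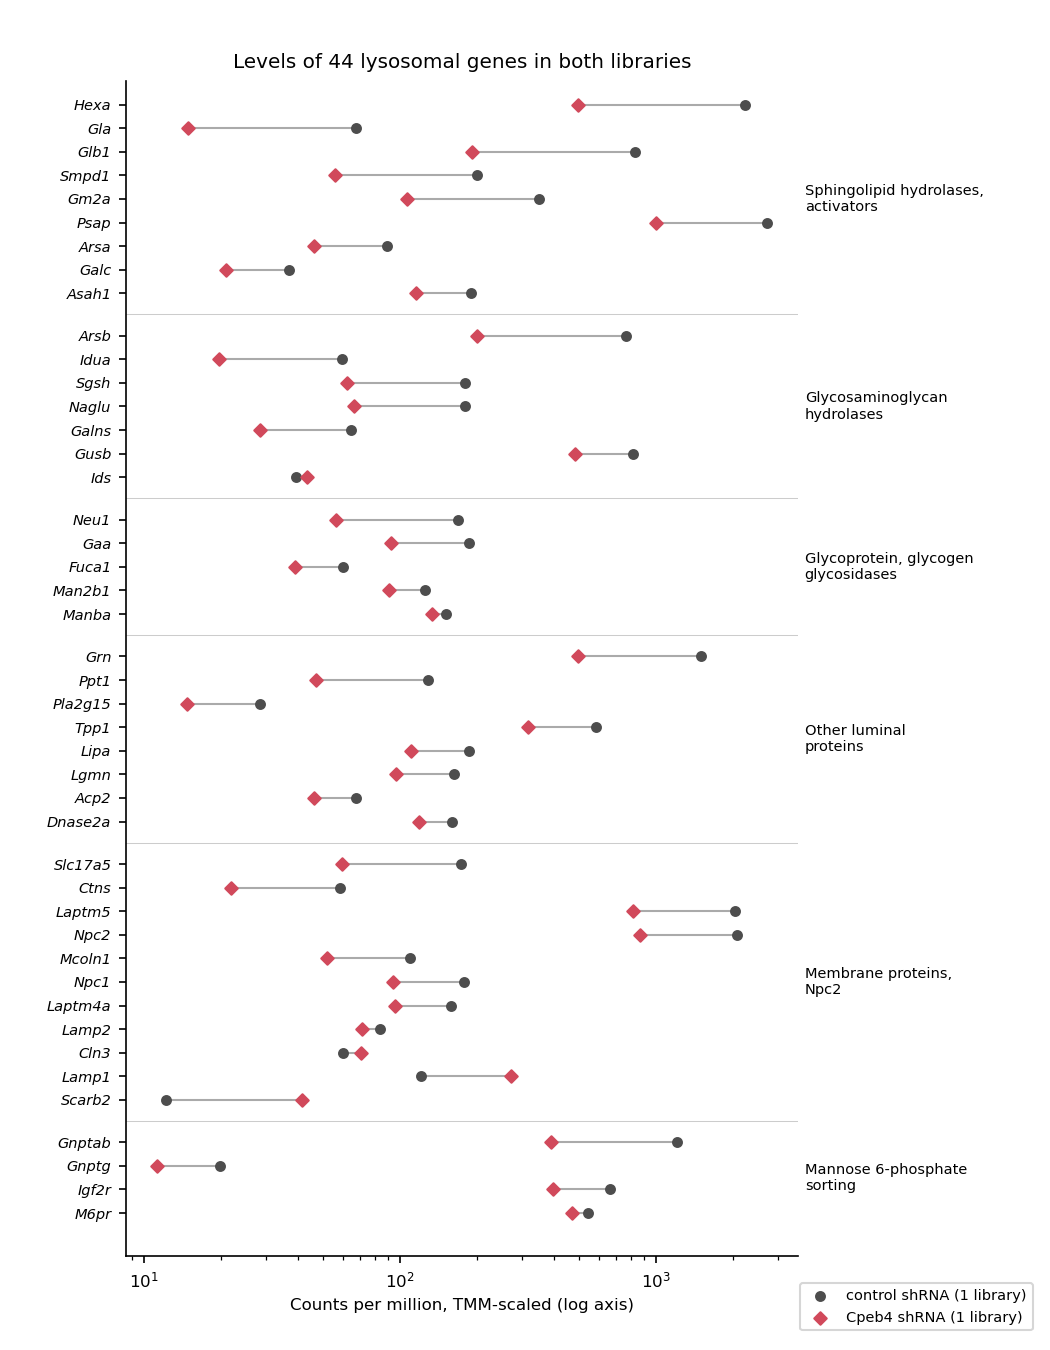
Level of each of the 44 genes in TMM-scaled CPM (horizontal log axis) in the control library (grey circles) and the Cpeb4 shRNA library (red diamonds), by role, 1 library each. The diamonds lie left of the circles for 40 genes, and right of them for Ids, Cln3, Lamp1 and Scarb2.

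The membrane proteins and cholesterol carriers split in direction. Of 11 genes, 5 were at least 2-fold lower, 2 were at least 2-fold higher and 4 were within 2-fold, with a median log2 ratio of -0.92. Scarb2, also named LIMP-2, a membrane protein and sorting receptor of the lysosome (ENSMUSG00000029426; chromosome 5, 92441314 to 92506833, minus strand), had 892 and 5355 counts, 12.2 and 41.4 CPM, and was 3.40-fold higher in the Cpeb4 shRNA library (1.76, counting interval 1.66 to 1.87). Lamp1, a heavily glycosylated protein of the limiting membrane (ENSMUSG00000031447; chromosome 8, 13159161 to 13175338, plus strand), had 8896 and 35120 counts, 121 and 271 CPM, and was 2.23-fold higher (1.16, 1.13 to 1.19). Lamp2, its paralog with roles in autophagy, had 83.7 and 71.1 CPM (-0.24). The 2 paralogs thus differed by 1.40 log2 units (1.34 to 1.45). By CPM the Lamp1 level was 1.45 times that of Lamp2 in the control library and 3.82 times with the Cpeb4 shRNA. Per total exonic length it was 5.18 and 13.6 times, and these quotients depend on the length used. The exons of all annotated transcripts cover 9552 bases for Lamp2 and 2675 for Lamp1, against 3604 and 2229 in 1 annotated transcript each.

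The small-molecule exporters and the calcium channel of the membrane were lower. Slc17a5, the sialic acid exporter also named sialin, had 174 and 59.6 CPM (-1.55), and Ctns, the cystine exporter, 58.6 and 21.9 CPM (-1.42). Mcoln1, the cation channel TRPML1, had 110 and 52.1 CPM (-1.08). It was within 2-fold under total-count scaling (-0.84), reference-gene scaling (-0.92) and removal of the GC and length trend (-0.95). Cln3, a membrane protein that is mutated in juvenile Batten disease, was on the other side of 0, with 59.7 and 70.7 CPM (0.25).

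The cholesterol carriers Npc2 and Npc1, which pass cholesterol out of the lumen one after the other, were both lower. Npc2, the soluble protein, had 151916 and 111912 counts, 2074 and 865 CPM (-1.26). Npc1, the membrane protein, had 178 and 94.3 CPM (-0.92). Of the LAPTM proteins, Laptm5, which is restricted to blood cells, had 2043 and 816 CPM (-1.32), and the more widely expressed Laptm4a had 158 and 95.4 CPM (-0.73).

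All 4 genes of the mannose 6-phosphate route were below 0 under TMM scaling, with 1 of them at least 2-fold lower and a median log2 ratio of -0.78. Gnptab encodes the catalytic subunits of the phosphotransferase that starts the tag. It had 88696 and 50499 counts, 1211 and 390 CPM, and was 3.10-fold lower (-1.63, counting interval -1.65 to -1.62). Gnptg, the gamma subunit of the same enzyme, had 19.7 and 11.2 CPM (-0.82). Per exonic length Gnptab stood at 23.5 times the level of Gnptg with the control shRNA and 13.3 times with the Cpeb4 shRNA.

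The receptors of the tag differed less. Igf2r, the large cation-independent receptor, had 662 and 396 CPM (-0.74). M6pr, the small cation-dependent receptor, had 543 and 469 CPM (-0.21), and its log2 ratio was 0.02 under total-count scaling. The CPM of Igf2r, which is not corrected for length, was 1.22 times that of M6pr with the control shRNA and 0.84 times with the Cpeb4 shRNA. Per exonic length Igf2r stood at 0.55 and 0.38 times the level of M6pr, so it was below M6pr in both libraries.

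The most abundant of the 44 genes per length were compared in TPM, a level per exonic length scaled to the library, computed from the counts and the total exonic length of each gene. In the control library Hexa was first at 2902 TPM, followed by Psap at 2573, Laptm5 at 1393, Grn at 1113 and Npc2 at 985. In the Cpeb4 shRNA library Psap was first at 1133 TPM, then Hexa at 767, Laptm5 at 666, Npc2 at 491 and Grn at 440. These 5 genes thus led in both libraries in a different order. Lamp1 was 20th of 44 in the control library at 117 TPM and 8th in the Cpeb4 shRNA library at 314 TPM. Scarb2 was the least abundant in the control library, with 5.01 TPM, and had 20.3 TPM in the Cpeb4 shRNA library. The median over the 44 genes was 103 TPM with the control shRNA and 51.2 with the Cpeb4 shRNA, beside 16.9 and 21.6 over all genes past the filter.

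Lysosomal genes outside the 44, from lists drawn up for comparison, had a similar lean. Of 22 other luminal genes past the filter, 8 were 2-fold or more lower and 0 higher, with a median log2 ratio of -0.74. Hyal1, a hyaluronidase, was among the lowest at -1.79, and Naaa (0.27), an acid amidase of N-acylethanolamines, and Prcp (0.25), a carboxypeptidase, were highest. Sumf1, which activates all sulfatases, was at -1.07. Of 20 other membrane genes, 9 were past 2-fold downward and 1 upward, with a median of -0.89. Ostm1 and Clcn7, the subunits of the chloride-proton exchanger that osteoclasts need for acid secretion, were lowest at -2.19 and -1.99. Sidt2, a lysosomal protein linked to nucleic acid uptake, was highest at 1.70, from 1265 and 7282 counts, with Spns1, a lysophospholipid transporter, next at 0.40.

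The sorting machinery and the regulators of lysosomal genes showed smaller differences. Of 14 genes for sorting adaptors, retromer and the uncovering enzyme of the tag, 0 were at least 2-fold lower and 1 was higher, with a median of -0.38. The gene past 2-fold was Sort1, which encodes sortilin, a sorting receptor that works apart from the mannose 6-phosphate tag. It had 133 and 1248 counts, a log2 ratio of 2.41. Gga3 followed at 0.45, and the adaptor genes Ap3d1 (-0.79) and Ap3m1 (-0.64) were lowest. Of 15 regulators past the filter none (0) was past 2-fold, and the median was -0.59. Among the MiT factors, Tfeb was at -0.63 from 1569 and 1794 counts and Tfec at -0.82 from 973 and 975 counts. Tfe3 was at 0.25 and Mitf at 0.62, from 6395 and 17418 counts. The subunits of the mTORC1 anchor at the lysosome ranged from -0.97 for Rragc and -0.96 for Lamtor4 to -0.11 for Lamtor2.

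**Figure D4:**
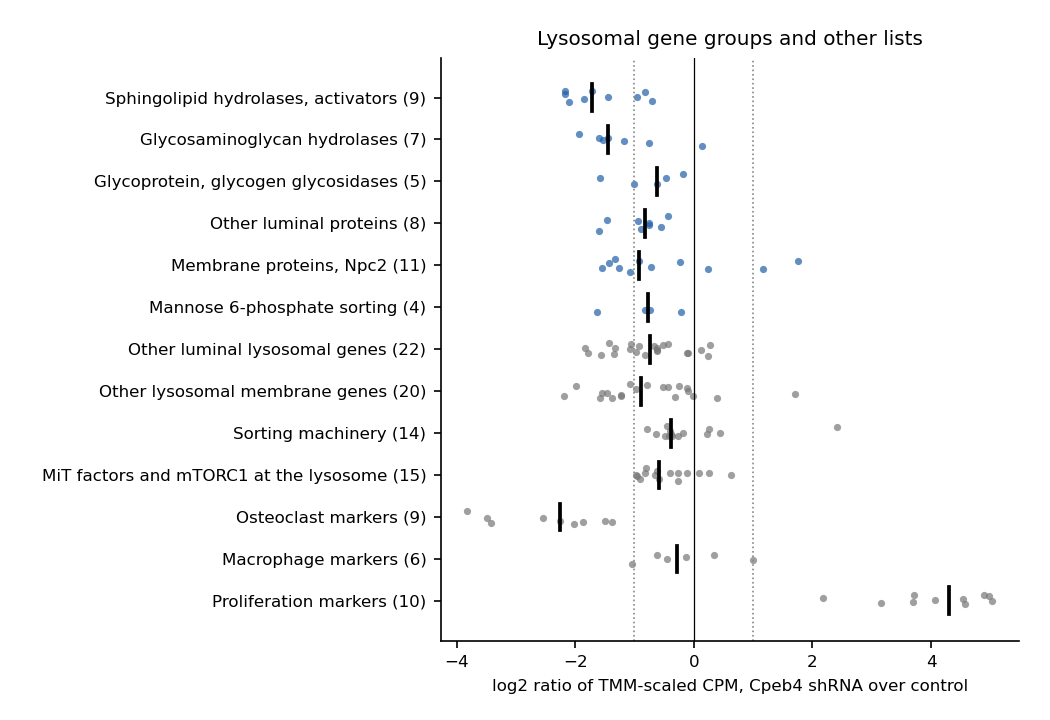
Log2 ratio of Cpeb4 shRNA over control (horizontal axis) for the 6 role groups of the 44 genes (blue) and for other lists (grey); each point is a gene, the black bar the list's median, and dotted lines mark 2-fold. The lysosomal groups have medians between -1.72 and -0.63, osteoclast markers lie lower, with a median of -2.25, and proliferation markers higher, with a median of 4.31.

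Markers of osteoclasts and of proliferation differed between the same libraries. All 9 osteoclast markers were at least 2-fold lower, with log2 ratios from -3.82 to -1.37, and their summed level was 48177 CPM with the control shRNA and 9721 CPM with the Cpeb4 shRNA. All 10 proliferation markers were at least 2-fold higher, from 2.18 to 5.03, with summed levels of 172.7 and 2100 CPM. The 6 macrophage markers past the filter had 1 lower, 0 higher and a median of -0.29. They split in direction, with 4 below 0. Their log2 ratios ran from -1.04 for Cd68 to 0.998 for Lyz2, just short of 2-fold higher. Their summed levels, 4152 and 2581 CPM, came mostly from Csf1r, with 2736 and 1790 CPM. The ratio of the summed CPM of the 44 lysosomal genes, 19856 and 8339, was -1.25 on the log2 scale, against -2.31 for the osteoclast markers. The part of these differences in the lysosomal result was not tested.

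Overlap with other genes limits some of the values, since the handling of strand in counting is not known. Of the 44 genes, 20 overlap another annotated gene. Among the 24 that do not, 12 were past 2-fold downward and 0 upward, and the median was -0.98. For Ppt1, a gene with overlapping exons on the opposite strand, Cap1, had 81140 and 58021 counts beside 9475 and 6077 for Ppt1. For Cln3 the opposite gene Apobr had 16165 and 23005 counts beside 4372 and 9154. Idua lies opposite Dgkq, with 3268 and 3333 counts beside 4356 and 2539, Gnptg opposite Unkl, with 585 and 1540 beside 1445 and 1448, and Npc1 opposite Rmc1, with 5308 and 5862 beside 13033 and 12207. Sgsh lies opposite Card14, which had 3201 and 360 counts beside 13164 and 8007. Acp2 lies opposite Ddb2, with 569 and 1595 beside 4934 and 5956. The values of these 7 genes and of Glb1 are uncertain. Lamp1 overlaps Grtp1, which had 25 and 180 counts, far below Lamp1, and Scarb2 overlaps a microRNA gene outside its exons.

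Cpeb4 protein binds cytoplasmic polyadenylation elements near the 3′ ends of mRNAs. For 1 annotated transcript per gene (GENCODE M21), the last 100 bases of the 3′ UTR were therefore searched on the sense strand. The letters sought were TTTTAT, a common form of the element. They were found for 6 of 44 lysosomal genes (13.6%), Arsb, Slc17a5, Galc, Lgmn, Lamp2 and Scarb2, and for 15.4% of the 10048 genes past the filter with such a window. The median log2 ratio was -0.78 for the 6 genes with the letters and -0.98 for the others. Over all genes past the filter with such a window the medians also leaned that way, 0.16 with the letters and -0.01 without. The 6 spanned nearly the whole range, from Arsb at -1.94 to Scarb2 at 1.76. Transcripts with other 3′ ends may be the ones used in these cells. Other forms of the element were not searched, so genes with only such a form are not counted.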

How the data were processed

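RNA of 2 RAW264.7 libraries, 1 per shRNA group, was sequenced. The authors deposited 1 table of whole-number counts per gene. Per the submitters' processing notes, HISAT2 and mouse genome build mm10 were used. Not given in the sources used here are the way reads were counted, the annotation, and the treatment of strand and multiple alignments. Every listed gene has at least 1 count in both libraries, and an excess of genes at 4 counts means the values may be rounded estimates.

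Counts were scaled with TMM in edgeR 4.0.16 (R 4.3.3). Genes averaging 1 CPM or more were kept. The log2 ratio was given with an exact Clopper-Pearson 95% interval on the 2 counts, which covers counting error only and treats reads as independent molecules. Genes were called by size, at least 2-fold. With 1 library per group no test was run. A count of 3, the limit a count of 0 allows, is 0.041 CPM in the control library. Exonic lengths, overlaps and 3′ UTRs came from GENCODE M21 (GRCm38), which held 18935 of 18987 identifiers, and promoters from RefSeq. Positions of promoter windows are on GRCm38.p6.

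Of the 44 genes all are named, grouped by role, with counts or CPM. From other lists the text takes counts, medians and the 2 highest and lowest genes, plus all MiT factors and further genes tied to a member; some genes that this takes are not reported here. The members and lists were chosen with earlier results of these data known. Alternatives were other scalings (total counts, DESeq2 1.42.0 size factors, upper quartile, 20 reference genes), filters, thresholds, pseudocounts, thinning and removal of a GC and length trend. On simulated counts for this comparison, run on 12086 genes, 100.0% of genes changed 3-fold or 8-fold were recovered in each direction. The simulation held counting error only, with no variation between cultures. It therefore checks the calculation and cannot show whether a difference would repeat in other cultures.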

Additional observations from a re-analysis of the deposited data

How the results depend on the processing

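No paired analysis was possible because there is a single library per shRNA. The median log2 ratio of the 44 genes, -0.95 as reported, was -0.71 with total-count scaling, -0.79 with reference-gene scaling, -0.88 after removal of the GC and length trend and -1.14 with a filter at 100 CPM, where fewer genes remain. Total-count and reference-gene scaling moved the median of all genes by 0.23 and 0.15, and the share of higher among genes past 2-fold was 70.5% and 65.5% there, 55.4% with TMM and 36.9% with the filter at 100 CPM. The count of lysosomal genes at least 2-fold lower was 18 with total-count scaling and between 19 and 21 under the other scalings, filters at 10 CPM or none, pseudocounts, thinning and trend removal. With TMM scaling it was 34 at 1.5-fold and 3 at 4-fold, where 0 were higher. Among genes that overlap no other gene 12 were lower and 0 higher. With the filter at 100 CPM 15 genes were lower and 1 was higher, since Scarb2 drops out. The last 2 alternatives were chosen after seeing the data. Signs changed for M6pr and Manba under total-count scaling and for Ids after trend removal. The cause was not tested. With 1 library per group, depth is not the limit for these genes, and the spread between cultures is unknown.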
